A study of Mus musculus with 10 samples.

Results

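The genes described here encode the organic anion and cation transporters of the Slc17, Slc22, Slc47 and Slco families. They were chosen by symbol alone, as every gene whose listed name is Slc17a, Slc22a or Slc47a followed by a number, or Slco followed by a number, a letter and a number. Of the 39273 genes in the table, 47 matched, and 44 of these had the 10 counts over the 10 libraries that were needed for a test. *Slc17a2*, *Slc22a14* and *Slc22a20* were not tested, with at most 3 counts in any library.

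RNA-seq libraries of mouse ureteric bud (UB) and collecting duct (CD) cells were compared in 5 groups of 2 libraries. UB organoids were grown in Matrigel, in a culture medium that keeps UB progenitors, from ureteric buds of embryonic day 11 kidneys, and were sampled at day 5, day 10 and day 20 of culture. The CD organoids were UB organoids moved at day 10 into a differentiation medium for 7 days. All these organoids carried the Wnt11-RFP +/- reporter on a C57BL/6 x Swiss Webster background. The last group is adult mouse CD cells (adult mCD), which the series describes as sorted Hoxb7-Venus cells of 2-month-old mice, whereas the sample labels give an organoid, the embryonic age and the Wnt11-RFP +/- genotype for these libraries as well. In Hoxb7-Venus mice, the fluorescent protein is driven by the Hoxb7 promoter, which is active in the UB and in the duct system that arises from it. Nothing in the labels says whether the 2 libraries of a group came from separate cultures or mice. The p-values therefore measure only spread between such libraries, estimated jointly over the 5 groups, which may be technical.

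In the kidney, organic anions such as urate, prostaglandins and many drugs are taken up from the blood by basolateral organic anion transporters of the proximal tubule and are passed into the urine by apical carriers and ATP-driven pumps. Organic cations follow a parallel route, entering through Slc22 carriers and leaving through the Slc47 (MATE) exchangers. The proximal tubule derives from nephron progenitors and not from the UB, while the Slco polypeptides, the carnitine carriers and the lysosomal Slc17 carrier are found in many epithelia.

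Levels are given as CPM, the count of a gene scaled by library size and TMM factor to a common total of 1000000. Levels of different genes are compared as CPM per kilobase of merged exons. The libraries held between 11913613 and 24536676 counts, and a count of 3, the upper limit that a count of 0 allows, equals 0.109 to 0.241 CPM. This limit and all counting intervals cover counting error only. *Aqp2*, the water channel of principal cells, was at 4541 and 4374 CPM in adult mCD, and the 12 principal cell markers summed there to 14622 and 14116 CPM. The 26 proximal tubule markers, which include no transporter described here, summed to 17320 and 21047 CPM, with *Kap* alone at a mean of 5362 CPM. The lists differ in size, so their sums do not rank the cell types. The 9 markers of the loop of Henle and distal convoluted tubule summed to 6709 and 7106 CPM the 15 intercalated cell markers to 4375 and 4480 CPM, the 8 endothelial markers to 937 and 912 CPM, the 8 stromal markers to 151 and 163 CPM and the 10 leukocyte markers to 73.7 and 80.9 CPM. In bulk RNA, fewer cells of a type and less RNA per cell cannot be told apart. The female transcript *Xist* was at 1966 to 2446 CPM in UB organoids of days 5 and 10, 200 to 358 CPM at day 20 and in CD organoids, and 1.96 and 0.0786 CPM in adult mCD, where the Y-linked *Ddx3y* was at 120 and 121 CPM. Libraries of days 5 and 10 were also the deepest, with at least 22858971 counts, where all others held at most 16759872. Comparisons of day 20 or CD organoids with day 10 cross this split, so effects of stage or medium cannot be told apart from it.

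Together, the 47 genes took 0.233% and 0.26% of all counts in adult mCD and between 0.0361% and 0.066% in the organoid libraries. Their summed level was 2945 and 3278 CPM in adult mCD, 593 and 630 CPM in CD organoids, 555 and 562 CPM at day 20, 475 and 471 CPM at day 10 and 358 and 414 CPM at day 5. In adult mCD, 33 of the genes reached a mean of 1 CPM, whereas 13 to 15 did so in each organoid group. Both adult libraries thus held a higher summed level than any organoid library.

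**Figure D1:**
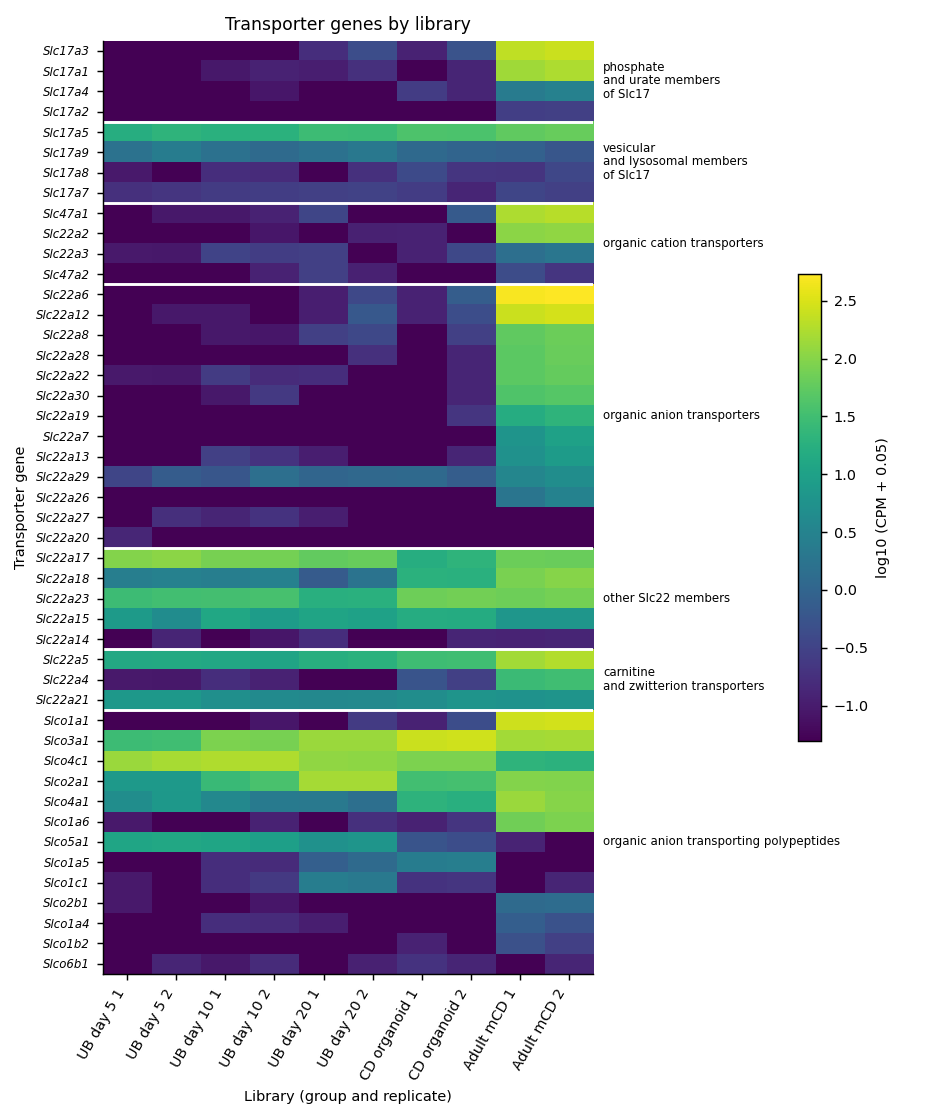
Level of 46 of the transporter genes (rows, grouped by role) in each of the 10 libraries (columns), as log10 of CPM plus 0.05 on the colour scale. Most organic anion, organic cation and phosphate transporters are bright only in the 2 adult libraries, while Slco4c1, Slco3a1, Slc22a17, Slc22a23, Slc17a5 and Slc22a5 are bright in every organoid library.

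A gene was called where edgeR's quasi-likelihood test over 24410 genes gave a Benjamini-Hochberg adjusted p no higher than 0.01 and the levels differed by over 4-fold. Against CD organoids, 26 of the 44 tested transporter genes were called higher in adult mCD, where 9.84% of all tested genes were, and 3 were called lower, where 4.5% of all genes were. Against UB organoids of day 20, 26 were called higher and 4 lower in adult mCD, beside 12.3% and 6.89% of all genes. The median log2 difference of the 44 genes was 2.72 and 3.91 in these comparisons, beside 0 and -0.06 over all genes tested. Both comparisons share the adult libraries. With library totals in place of TMM factors, the median of all genes moved by -0.38 and -0.44, and by 0.14 from day 5 to day 10.

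Within the organoids, far fewer transporter genes were called. CD organoids had 5 called higher and 2 called lower than UB organoids of day 10, beside 4.96% and 5.71% of all genes. Against day 20 they had 4 called higher and 3 called lower, beside 4.74% and 4.73%. From day 5 to day 10, 1 was called higher, beside 2.34%, and 0 were called lower, beside 1.07%, with 3 lower at an unadjusted p under 0.05 in edgeR and 0 called by DESeq2. From day 10 to day 20, 3 were called higher, beside 1.66%, and 0 lower, beside 1.73%, with 8 lower at an unadjusted p under 0.05 in edgeR and 0 called by DESeq2. The shares of transporter genes called in these 4 comparisons rest on 0 to 5 genes each.

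In all, 25 transporter genes were called higher in adult mCD in both comparisons, and 21 of these had at most 10 counts in every organoid library. These 21 are described first, by the role of the protein.

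Most of the organic anion transporters of Slc22 belonged to this set. *Slc22a6*, which encodes OAT1, the basolateral exchanger that takes up organic anions against a dicarboxylate, had 6462 and 6843 counts in adult mCD and was the transporter gene with the highest level there, at 129 CPM per kilobase. It had 1 and 9 counts in CD organoids, 1 and 5 at day 20 and 0 in all 4 libraries of days 5 and 10. By counts, its level in adult mCD was 1357-fold that of CD organoids (95% counting interval 738 to 2831) and 2697-fold that of day 20 (1239 to 7350). It was also called higher in CD organoids than at day 10, on 1 and 9 counts against 0 and 0 (at least 6.62-fold on the floor of 3 counts over both libraries, adjusted p = 0.00884 in edgeR). This call was lost with DESeq2 (adjusted p = 0.0142), with a prior count of 5, with the 4 libraries alone (adjusted p = 0.0349 in edgeR) and without CD organoid replicate 2 (adjusted p = 0.174), either day 10 library or either adult library. *Slc22a8*, which encodes the second basolateral uptake carrier, OAT3, had 734 and 842 counts in adult mCD, 0 and 3 in CD organoids, 4 and 5 at day 20 and at most 1 in the libraries of days 5 and 10. The groups did not overlap, and the ratio was 536 against CD organoids (183 to 2601) and 213 against day 20 (112 to 467).

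*Slc22a12*, which encodes the apical urate exchanger URAT1, had 3420 and 3768 counts in adult mCD, 1 and 5 in CD organoids, 1 and 9 at day 20, 1 and 0 at day 10, with 0 and 1 at day 5. Its 122 CPM per kilobase in adult mCD overlapped the range of *Slc22a6* between libraries, so that the order of these leading genes was not resolved. Its exons share 682 bases with *Nrxn2* on the opposite strand, and the counting is not stated to use strand. *Slc22a7*, the gene of OAT2, was far lower, with 80 and 129 counts in adult mCD and 0 in all 8 organoid libraries, at least 71.1-fold higher in adult mCD than in CD organoids, taking 3 counts over both libraries as the floor. *Slc22a13*, which encodes a urate and nicotinate carrier, had 73 and 105 counts in adult mCD and 0 to 6 in the organoids. DESeq2 did not call *Slc22a7* or *Slc22a26* in either adult comparison.

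The remaining organic anion transporters of the set, *Slc22a19*, *Slc22a22*, *Slc22a26*, *Slc22a28* and *Slc22a30*, are rodent genes with many close relatives. *Slc22a28* had 675 and 817 counts in adult mCD and at most 2 in an organoid library. *Slc22a22*, which encodes a prostaglandin-specific transporter, had 696 and 751 counts in adult mCD and 0 to 5 in the organoids. *Slc22a30* had 562 and 589 counts in adult mCD, and at most 5, while *Slc22a19* had 204 and 267, and at most 2. *Slc22a26* was the lowest, with 24 and 38 counts in adult mCD and 0 in every organoid library. *Slc22a29* differed from these neighbours in that it was counted in every library, with 47 and 60 counts in adult mCD, 16 and 9 in CD organoids and 7 to 39 in UB organoids. It was called higher in adult mCD against CD organoids alone (log2 fold change 2.07, adjusted p = 0.00172 in edgeR), a call lost without CD organoid replicate 2 (1.82) or adult replicate 2 (1.87), with a prior count of 5 (1.86) and with library totals (1.69). Against day 20 it was called with DESeq2 and without adult replicate 1 (2.05 each). *Slc22a27* and *Slc22a20* stayed at 0 counts in adult mCD, and had at most 4 and 2 counts in any library.

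Organic cation transporters followed the same pattern. *Slc22a2*, which encodes OCT2, the basolateral uptake carrier for cations, had 1408 and 1453 counts in adult mCD and at most 1 in every organoid library. *Slc47a1*, which encodes the apical cation exchanger MATE1, had 2276 and 2524 counts in adult mCD, 0 and 8 in CD organoids, 5 and 0 at day 20 and 0 to 2 at days 5 and 10. Its ratio was 612 against CD organoids (310 to 1419) and 1167 against day 20 (500 to 3597). *Slc47a2*, the gene beside it on chromosome 11, had 5 and 2 counts in adult mCD and was not called. *Slc22a3*, which encodes OCT3, was low throughout, with 19 and 24 counts in adult mCD, 1 and 4 in CD organoids, 4 and 0 at day 20, 7 and 6 at day 10, with 1 and 1 at day 5. Its call against CD organoids (log2 fold change 2.81, adjusted p = 0.00236 in edgeR) was lost with DESeq2 and without CD organoid replicate 1 (2.19) or adult replicate 2 (2.63), and its exons share 420 bases with *Plg* on the opposite strand.

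Of the Slc17 carriers, *Slc17a1* and *Slc17a3*, which encode apical phosphate and urate transporters of the proximal tubule, had 1873 and 2213 and 2937 and 3260 counts in adult mCD. *Slc17a1* had 0 to 2 counts in the organoid libraries, and *Slc17a3* had 1 and 6 in CD organoids, 2 and 6 at day 20 and 0 in all 4 libraries of days 5 and 10. The ratio of adult mCD to CD organoids was 903 for *Slc17a3* (438 to 2247). *Slc17a4* had 31 and 37 counts in adult mCD and at most 3 in an organoid library, and *Slc17a2* had 3 and 3 counts in adult mCD and 0 elsewhere. In contrast, *Slc17a5*, which encodes sialin, the lysosomal exporter of sialic acid, was found in all libraries, at 16.1 and 20.8 CPM at day 5, 17.8 and 18.8 at day 10, 29.5 and 28.3 at day 20, 40.8 and 38.1 in CD organoids and 56.3 and 61.9 in adult mCD. No change of it exceeded 4-fold, the log2 difference being 1.11 between CD organoids and day 10 (adjusted p = 2.58e-06 in edgeR) and 1.03 between adult mCD and day 20 (adjusted p = 2.92e-06). The vesicular carriers stayed low: *Slc17a9*, the vesicular nucleotide transporter, was between 0.55 and 2.41 CPM, and *Slc17a7* and *Slc17a8*, vesicular glutamate transporters, had at most 6 counts in any library.

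Among the organic anion transporting polypeptides, *Slco1a1*, *Slco1a6*, *Slco2b1* and *Slco1a4* belonged to the set. *Slco1a1*, which encodes an apical uptake carrier for steroid conjugates that is more abundant in male than in female mouse kidney, had 3539 and 3615 counts in adult mCD, 1 and 5 in CD organoids, 0 and 3 at day 20 and at most 1 at days 5 and 10. *Slco1a6* had 963 and 1098 counts in adult mCD and at most 2 in an organoid library. *Slco2b1* and *Slco1a4* were called as well but rested on 16 and 16 and on 10 and 6 counts in adult mCD. Both calls of *Slco1a4* were lost with DESeq2 (adjusted p = 0.0313 and 0.0862), with a prior count of 5 and without adult replicate 1. Its call against CD organoids was also lost without either CD organoid library, and that against day 20 without adult replicate 2 or either day 20 library and with library totals. *Slco1b2*, known as a liver gene, had 6 and 3 counts in adult mCD and was not called, and *Slco6b1* had at most 3 counts in any library. The zwitterion carrier *Slc22a4* (OCTN1) closed the set, with 366 and 402 counts in adult mCD. It had 7 and 3 counts in CD organoids and 0 and 0 at day 20, where CD organoids were called higher by at least 3.97-fold, taking 3 counts over both libraries as the floor. This call was lost without day 20 replicate 1 (adjusted p = 0.0104 in edgeR) or CD organoid replicate 1 (adjusted p = 0.02), and with a prior count of 5.

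*Slc22a5*, *Slc22a18* and *Slco4a1* were called higher in adult mCD in both comparisons but were also counted in organoids. *Slc22a5*, which encodes the carnitine carrier OCTN2, was at 151 and 185 CPM in adult mCD, 30 and 31.4 in CD organoids and 11.4 to 18.6 in UB organoids. Adult mCD lay above CD organoids by 2.45 on the log2 scale (standard error 0.107, adjusted p = 3.74e-10 in edgeR), and CD organoids above day 10 by 1.34 (adjusted p = 2.98e-07), which is under 4-fold.

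*Slc22a18* encodes an orphan member of the family and lies in an imprinted region. It was at 83.6 and 101 CPM in adult mCD, 19 and 18 in CD organoids, 0.667 and 1.65 at day 20, 2.62 and 2.95 at day 10, with 2.56 and 2.90 at day 5. CD organoids thus lay between UB organoids and adult mCD with no overlap. The log2 fold change was 2.71 from day 10 to CD organoids (standard error 0.191, adjusted p = 4.84e-08 in edgeR), 3.96 against day 20 (adjusted p = 1.36e-08) and 2.31 from CD organoids to adult mCD (adjusted p = 3.9e-08). The last fell to 1.92, under 4-fold, with library totals, and the value against day 20 lay between 3.44 and 4.67 with either day 20 library left out.

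*Slco4a1*, which encodes a carrier of thyroid hormone and prostaglandins, behaved likewise, at 132 and 101 CPM in adult mCD, 20.3 and 17.6 in CD organoids, 2.12 and 1.45 at day 20, 3.81 and 2.26 at day 10, with 4.61 and 6.90 at day 5. It rose by 2.63 on the log2 scale from day 10 to CD organoids (standard error 0.239, adjusted p = 5.94e-07 in edgeR) and by a further 2.62 to adult mCD (standard error 0.199, adjusted p = 9.82e-08). *Slc22a23*, an orphan gene, differed in that CD organoids and adult mCD had the same range, 69.1 and 75.5 against 68.4 and 76.2 CPM, while UB organoids lay at 28.6 to 35.5 CPM at days 5 and 10 and 17.3 and 18.3 CPM at day 20. CD organoids and adult mCD were each called higher than day 20, with log2 fold changes of 2.02 (adjusted p = 2.3e-09 and 8.21e-10 in edgeR) that stand at the 4-fold limit. Both fell under it with library totals (1.96 and 1.56), without day 20 replicate 1 (1.97 and 1.98), and without adult replicate 2 (1.99 and 1.92), and that of CD organoids also without CD organoid replicate 2 (1.94) or adult replicate 1 (1.98).

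In the organoids, the levels were led by a different group of genes. Per kilobase, *Slco4c1* was the highest transporter gene in UB organoids on every day, at 29.9, 36.6 and 23.3 CPM per kilobase on days 5, 10 and 20, and *Slco3a1* in CD organoids, at 31.3. *Slco4c1*, which encodes the basolateral carrier of cardiac glycosides and thyroid hormone in the kidney, was at 131 and 162 CPM at day 5, 179 and 181 at day 10, 117 and 112 at day 20, 84.6 and 85.4 in CD organoids and 21.1 and 19.2 in adult mCD. Adult mCD was the lowest group, with no overlap. The log2 fold change of adult mCD was -2.50 against day 20 (standard error 0.105, adjusted p = 1.38e-10 in edgeR) and -2.07 against CD organoids (standard error 0.106, adjusted p = 1.76e-09), the latter -1.99 and thus under 4-fold without adult replicate 2. CD organoids lay below day 10 by less than 4-fold (log2 fold change -1.08, adjusted p = 3.18e-07).

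*Slc22a17*, which encodes the lipocalin-2 receptor, was the second gene per kilobase at days 5 and 10. It was at 95.5 and 108 CPM at day 5, 79.4 and 77.0 at day 10, 58.2 and 61.2 at day 20, 16.2 and 21 in CD organoids and 65.7 and 63.4 in adult mCD. CD organoids were therefore the lowest group, called lower than day 10 (log2 fold change -2.07, standard error 0.11, adjusted p = 2.93e-09 in edgeR; -1.89 without CD organoid replicate 1). They lay below day 20 by less than 4-fold (-1.69, adjusted p = 3.26e-08), and adult mCD lay above CD organoids by 1.80 (adjusted p = 1.33e-08), which passed 4-fold only without CD organoid replicate 2 (2.01). The deposited length of this gene is 5.85 times its merged exons, and by the deposited RPKM it ranked 3 at day 10 and 6 at day 20, where it ranked 2 and 3 per kilobase of merged exons.

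*Slco5a1*, an orphan gene, was likewise highest at days 5 and 10, at 11.8 and 13.1 CPM at day 5, 11.7 and 9.33 at day 10, 5.52 and 6.21 at day 20, 0.498 and 0.401 in CD organoids and 0.0754 and 0 in adult mCD. It fell by 4.38 on the log2 scale from day 10 to CD organoids (standard error 0.285, adjusted p = 2.15e-08 in edgeR). Against day 20, CD organoids lay lower by 12.9-fold in counts (7.23 to 25.5), and adult mCD held a single count where day 20 held 91 and 94. Its call between adult mCD and CD organoids rested on 7 and 5 counts against 1 and 0, and was lost with DESeq2, with a prior count of 5, with the 4 libraries alone, and without CD organoid replicate 1, CD organoid replicate 2 or adult replicate 2 (-2.31, -2.60 and -1.97).

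*Slco3a1*, which encodes a widely expressed prostaglandin and thyroxine carrier, was higher at each later day of UB culture, in steps under 4-fold, and highest in CD organoids. It was at 28.9 and 31.1 CPM at day 5, 87.2 and 78.7 at day 10, 133 and 135 at day 20, 252 and 278 in CD organoids and 149 and 153 in adult mCD. The log2 difference was 1.47 from day 5 to day 10 (adjusted p = 7.35e-08 in edgeR), 0.69 from day 10 to day 20 (adjusted p = 2.31e-05) and 1.68 from day 10 to CD organoids (adjusted p = 9.07e-10). Adult mCD lay below CD organoids (log2 fold change -0.81, adjusted p = 9.52e-07).

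*Slco2a1*, which encodes the prostaglandin uptake carrier PGT, was the transporter gene called in both steps of UB culture. It was at 7.60 and 7.67 CPM at day 5, 26.8 and 37.0 at day 10, 152 and 155 at day 20, 31.8 and 34.7 in CD organoids and 95.3 and 91.0 in adult mCD. It was called higher at day 10 than at day 5 (log2 fold change 2.06, standard error 0.134, adjusted p = 2.32e-07 in edgeR), a call lost without day 10 replicate 2 (1.79), and higher at day 20 than at day 10 (2.26, standard error 0.117, adjusted p = 2.32e-08). CD organoids were called lower than day 20 (-2.20, standard error 0.121, adjusted p = 5.15e-09), and lay within the range of day 10, the stage at which they had been moved to the differentiation medium. Their *Xist* level differed from that of day 10, so the day 10 libraries need not show their own starting cultures.

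**Figure D2:**
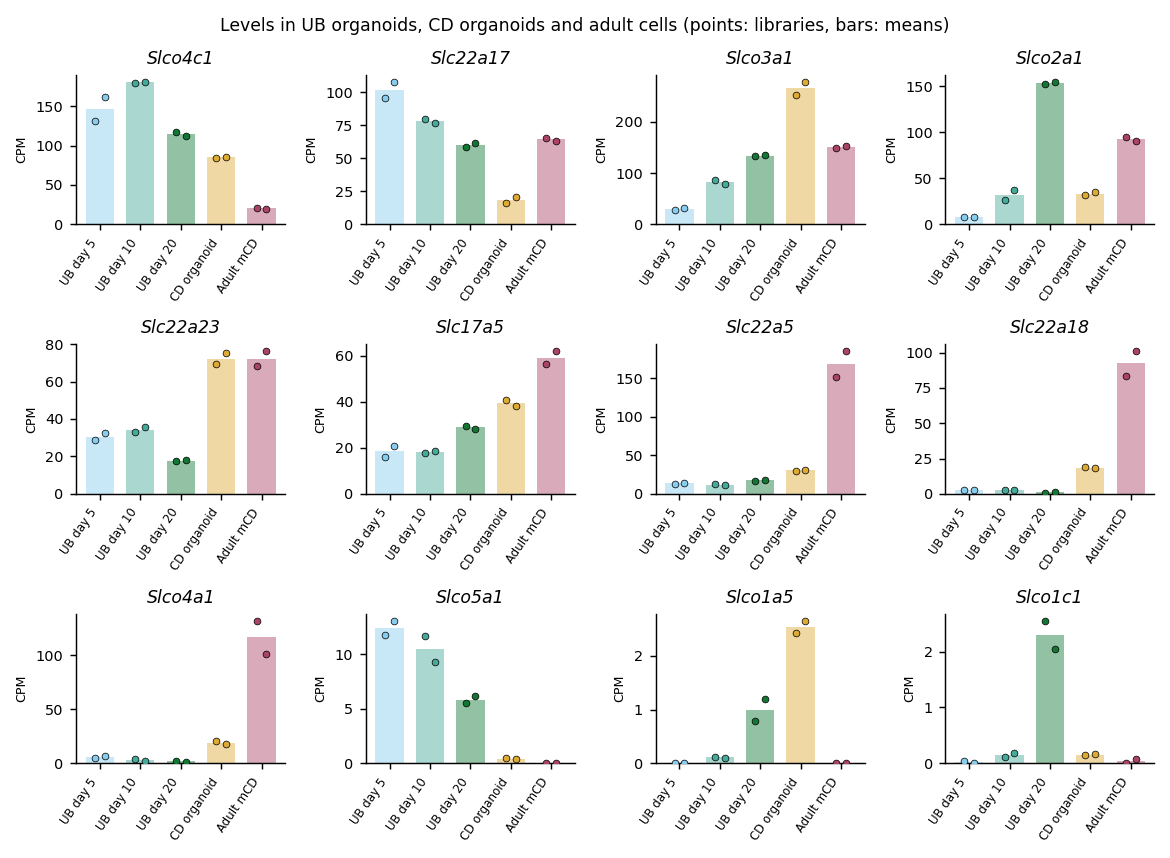
CPM of 12 transporter genes in the 5 groups (points, the 2 libraries of each group; bars, their mean; each panel has its own linear axis from 0). Slco4c1 and Slco5a1 are lowest in adult mCD, Slc22a18 and Slco4a1 step up from UB to CD organoids and again to adult mCD, Slco2a1 and Slco1c1 peak at day 20 and Slco1a5 in CD organoids.

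*Slco1a5* and *Slco1c1* were low genes, each called in several comparisons. *Slco1a5*, which encodes an intestinal and epithelial anion carrier, had 0 and 0 counts at day 5, 3 and 3 at day 10, 13 and 18 at day 20, 34 and 33 in CD organoids and 0 and 0 in adult mCD. CD organoids lay above day 10 by 22.2-fold in counts (9.67 to 62.6, adjusted p = 1.55e-05 in edgeR), and at least 21.9-fold above adult mCD, taking 3 counts over both adult libraries as the floor. Its call between days 20 and 10 (adjusted p = 0.00169) was lost with a prior count of 5 and without day 20 replicate 2. *Slco1c1*, which encodes a thyroxine carrier best known at the blood-brain barrier, had 42 and 31 counts at day 20 and at most 5 in any other library. It was called higher at day 20 than at day 10 (15.2-fold in counts, 7.32 to 36.5, adjusted p = 8.4e-05) and lower in CD organoids than at day 20 (log2 fold change -3.52, standard error 0.539, adjusted p = 0.000101). Adult mCD, with 0 and 1 counts, was called lower than day 20, which lay 60-fold higher in counts (10.4 to 2403).

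*Slc22a15* was between 4.49 and 15.4 CPM in all libraries and *Slc22a21*, a carnitine carrier, between 3.76 and 7.13 CPM, and neither was called in any of the 6 comparisons.

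**Figure D3:**
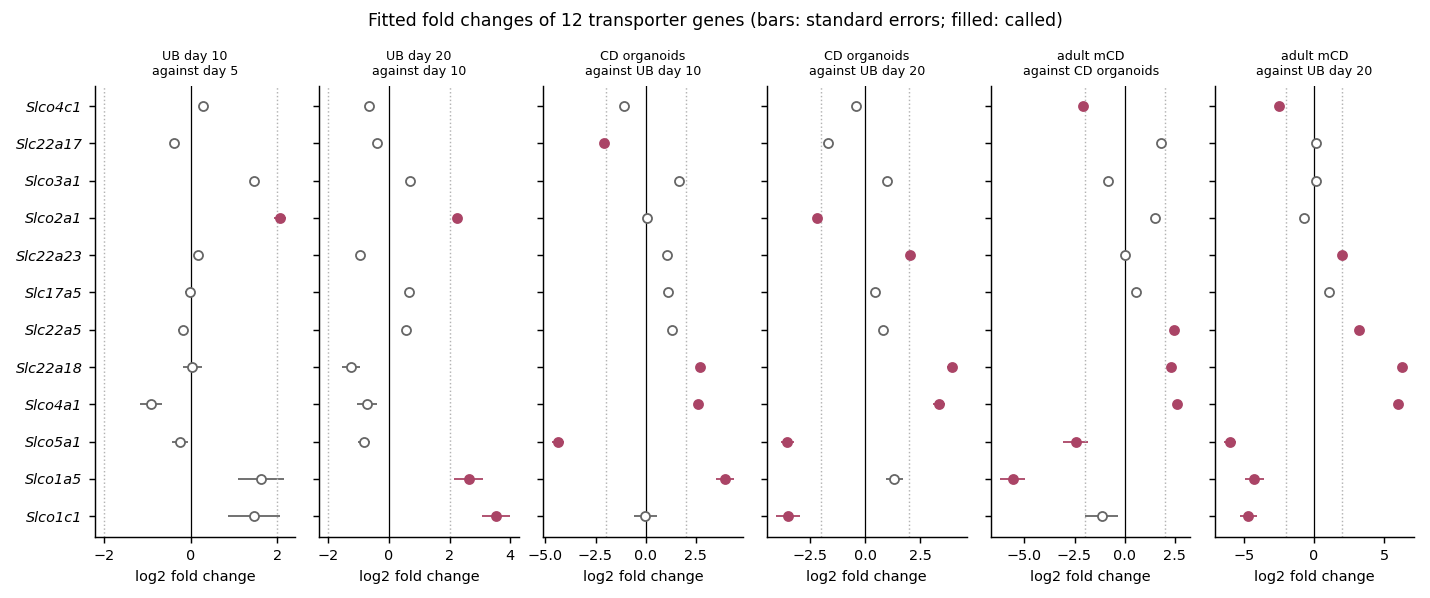
Fitted log2 fold changes of the same 12 genes in the 6 comparisons (points; bars, standard errors; filled points, called; dotted lines, 4-fold). Filled points are few between organoid days and most numerous where adult mCD is compared with UB organoids of day 20; the comparisons share libraries.

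The traces of the 21 adult-high genes in the organoids were not spread evenly. Their summed level was 0.01% and 0.0096% of the adult mean at day 5, 0.0541% and 0.0583% at day 10, 0.0628% and 0.109% at day 20, and in CD organoids 0.057% and 0.2%. CD organoid replicate 2 (95% counting interval 0.15% to 0.262%) did not overlap replicate 1 (0.0332% to 0.0912%) of the same group.

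**Figure D4:**
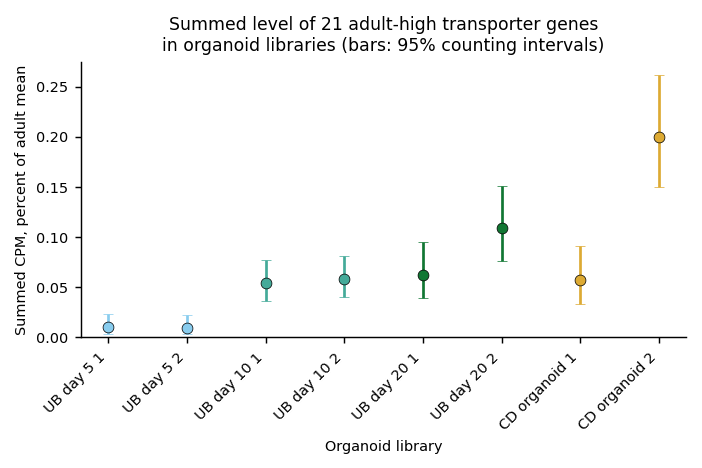
Summed CPM of the 21 adult-high transporter genes in each organoid library, as a percent of their adult mean of 2125 CPM (points; bars, exact Poisson 95% counting intervals; linear axis from 0). CD organoid replicate 2 stands highest, at 0.2%, and the 2 libraries of day 5 lowest.

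The traces differed between the genes. The 7 genes with at least 100 CPM in adult mCD, *Slc22a6*, *Slc22a12*, *Slco1a1*, *Slc17a3*, *Slc47a1*, *Slc17a1* and *Slc22a2*, had 0, 2, 3 and 6 counts in all in the libraries of days 5 and 10, at most 0.0125% of the adult mean. Over the same genes, day 20 held 10 and 26 counts (0.0345% and 0.0979%) and CD organoids 5 and 34 (0.0203% and 0.155%). For the sum of these 7 genes, the second replicate of both groups was thus the higher one. Single genes could go the other way, with *Slc47a1* at 5 and 0 counts at day 20 and *Slc22a2* at 1 and 0 in CD organoids. The other 14 genes had 5 and 3 counts at day 5 but 26 and 28 at day 10 (0.279% and 0.277% of the adult mean), which came mainly from *Slc22a3*, *Slc22a13* and *Slc22a22*, with 13, 10 and 8 counts at day 10. These 14 did not show the order of replicates seen for the 7. They had 12 and 9 counts at day 20 (0.197% and 0.161%). In CD organoids they had 12 and 19 (0.232% and 0.413%), with overlapping counting intervals (0.12% to 0.404% and 0.249% to 0.645%).

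The same libraries stood out for some markers of the proximal tubule and the loop of Henle. Of the 13 tubule markers with at least 1000 CPM in adult mCD, *Kap*, *Acsm2* and *Slc34a1* of the proximal tubule and *Umod* and *Slc12a1* of the loop of Henle had at most 6 counts in each library of days 5 and 10. These 5 were singled out because they were near 0 there, and they were at 0.0176% to 0.0435% of the adult mean in CD organoid replicate 1 and 0.117% to 0.208% in replicate 2, and at 0.00927% to 0.0499% in day 20 replicate 1 and 0.0687% to 0.118% in replicate 2. In each of these 4 libraries, the percentage of the 7 transporter genes lay within the range of these 5 markers. Both the 7 genes and the 5 markers had been chosen for low organoid counts, which makes such an overlap more likely. Nothing is therefore concluded from this overlap. The whole proximal tubule list did not follow this order. It summed to 0.284% and 0.275% of the adult mean at day 5, 0.211% and 0.255% at day 10, 0.36% and 0.423% at day 20, and in CD organoids 0.248% and 0.357%. *Lrp2*, the endocytic receptor megalin, had 238 to 555 counts in the UB organoid libraries and 69 and 66 in CD organoids. Of the loop of Henle and distal convoluted tubule markers among the 13, *Egf* and *Calb1* did not follow it either. *Egf* was already at 0.11% to 0.15% of the adult mean at days 5 and 10, and at 0.196% and 0.244% in CD organoids. *Calb1* was at 13.1% to 71.3% of the adult mean over the organoid libraries. *Aqp2* also differed between the day 20 libraries, with 12 and 104 counts, or 0.0163% and 0.154% of the adult mean. The part of RNA from other cells or other libraries in these traces was not tested. Without CD organoid replicate 2, the fitted log2 difference of *Slc22a6* between adult mCD and CD organoids rose from 10.21 to 12.03 and that of *Slc47a1* from 9.02 to 11.80. In all, 16 of 32 such values against CD organoids and 16 of 30 against day 20 moved by over 1.5-fold with 1 library left out.

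The 2 adult libraries differed for the same genes. Of the 21 genes, 16 had at least 100 counts over both adult libraries, and all 16 were higher in replicate 2, by a median of 1.16-fold (1.07 to 1.68). The proximal tubule markers behaved alike, with 25 of 25 higher in replicate 2 and a median of 1.18-fold (1.07 to 1.62), while 1 of 11 principal cell markers was higher in replicate 2, with a median of 0.971. The 13 other transporter genes with such counts had a median of 1.06, with 9 of 13 above 1. Over all 12008 genes the median was 1.01, with 6418 above 1. Other lists leaned to replicate 2 as well, with 8 of 9 loop of Henle and distal convoluted tubule markers (median 1.06) and 10 of 15 intercalated cell markers (1.03) above 1. Of the pumps, exchange partners and scaffold genes listed below, 14 of 17 were above 1 (1.11), and of the endothelial markers 3 of 8 (0.945). All 25 tested proximal tubule markers were called higher in adult mCD in both comparisons, beside 9.84% and 12.3% of all genes. Against day 10, CD organoids had 7 of them called higher and 3 lower, beside 4.96% and 5.71% of all genes. The part of proximal tubule cells in the adult levels was not tested.

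Many of the genes lie in clusters (GRCm38, GENCODE M21). *Slc22a19*, *Slc22a26*, *Slc22a27*, *Slc22a28*, *Slc22a29*, *Slc22a30*, *Slc22a8* and *Slc22a6* follow each other on chromosome 19 from 7673061 to 8628299, and 6 of these 8 belong to the adult-high set. *Slc17a2*, *Slc17a3*, *Slc17a1* and *Slc17a4* lie on chromosome 13 from 23806993 to 23915009. On chromosome 11, *Slc22a5*, *Slc22a21* and *Slc22a4* (53864542 to 54028090) stand side by side with 3 different patterns, since *Slc22a5* was found in all libraries and rose in adult mCD, *Slc22a21* was not called and *Slc22a4* was nearly at 0 in organoids. The Slco1 genes of chromosome 6 (141524368 to 142322981) were likewise mixed, with *Slco1a1* and *Slco1a6* high in adult mCD and *Slco1a5* and *Slco1c1* highest in organoids. The sources differ on the tools that made the counts, so how reads that fit several genes were treated is not settled, and values within the Slc22a26 to Slc22a30 and Slco1a groups, and low counts there above all, are uncertain.

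RefSeq promoter windows, from 250 bases before to 50 after a start site, were found for 39 of the 47 genes on GRCm38.p6, and the window nearest the annotated gene start was used. The sequences below show the contrast in CG dinucleotides, given in capitals, between adult-high genes and genes also found in organoids. *Slc22a6* (chr19:8617746-8618045, plus strand) and *Slc22a12* (chr19:6543021-6543320, minus strand) are adult-high, *Slco4c1* (chr1:96872122-96872421, minus strand) led in UB organoids, and *Slc22a5* (chr11:53891654-53891953, minus strand) was found in all groups.
Slc22a6: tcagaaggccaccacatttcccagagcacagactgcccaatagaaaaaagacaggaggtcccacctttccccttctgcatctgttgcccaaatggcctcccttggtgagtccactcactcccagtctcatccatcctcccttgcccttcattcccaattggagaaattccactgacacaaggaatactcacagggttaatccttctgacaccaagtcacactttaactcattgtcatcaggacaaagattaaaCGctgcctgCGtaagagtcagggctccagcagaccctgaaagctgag
Slc22a12: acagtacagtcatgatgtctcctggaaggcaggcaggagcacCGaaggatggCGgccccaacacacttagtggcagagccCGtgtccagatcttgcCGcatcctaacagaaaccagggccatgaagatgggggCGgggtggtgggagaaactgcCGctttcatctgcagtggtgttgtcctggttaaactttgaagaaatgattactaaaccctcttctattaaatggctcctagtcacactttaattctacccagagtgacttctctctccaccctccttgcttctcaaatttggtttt
Slco4c1: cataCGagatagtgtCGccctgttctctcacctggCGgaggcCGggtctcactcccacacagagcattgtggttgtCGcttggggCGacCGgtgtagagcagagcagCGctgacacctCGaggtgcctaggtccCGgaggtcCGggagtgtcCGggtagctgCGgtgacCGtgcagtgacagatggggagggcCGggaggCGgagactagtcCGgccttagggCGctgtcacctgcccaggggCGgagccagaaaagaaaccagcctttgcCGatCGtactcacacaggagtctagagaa
Slc22a5: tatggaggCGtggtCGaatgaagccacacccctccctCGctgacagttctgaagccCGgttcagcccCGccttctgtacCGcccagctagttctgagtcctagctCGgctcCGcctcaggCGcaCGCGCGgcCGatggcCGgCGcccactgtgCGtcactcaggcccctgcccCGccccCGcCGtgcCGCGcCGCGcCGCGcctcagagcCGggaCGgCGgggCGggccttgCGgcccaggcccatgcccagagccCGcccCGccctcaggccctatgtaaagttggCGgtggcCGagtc

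The window of *Slc22a6* holds 2 CG dinucleotides and that of *Slc22a12* holds 6, against 21 in that of *Slco4c1* and 34 in that of *Slc22a5*. Over the 18 adult-high genes with a window, the median was 1 (0 to 29), and 17 of 18 had at most 8. Over the 9 with a window among the 12 genes that reached a mean of 5 CPM in an organoid group, the median was 21 (2 to 38), and 1 of 9, *Slc22a18*, had at most 8. The exception among the adult-high genes was *Slc22a4*, with 29. Few CG dinucleotides were not particular to the adult-high genes. Over the 12 other transporter genes with a window, the median was 3.5 (0 to 23), and 10 of 12 had at most 8. Over all 32851 RefSeq windows the median was 7, and 54.2% had at most 8. The 2 sets were formed from the levels, and no test was made.

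**Figure D5:**
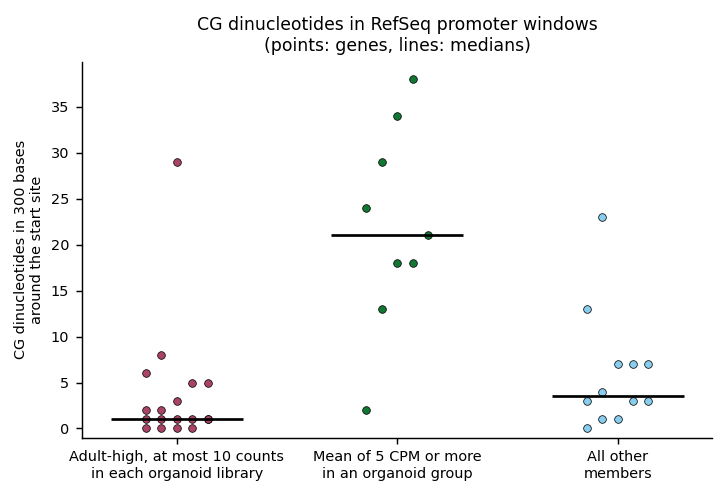
Number of CG dinucleotides in the 300-base RefSeq window of each transporter gene (points; lines, medians), for 18 adult-high genes, 9 genes with a mean of 5 CPM or more in an organoid group and 12 others. The organoid genes sit between 13 and 38 apart from Slc22a18 at 2, and the adult-high genes at 8 or less apart from Slc22a4 at 29. Of the 12 others, 10 also sit at 8 or less.

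The factors and partners of these transporters were read from lists. Of 8 transcription factors, 6 were called higher in adult mCD in both comparisons, beside 9.84% and 12.3% of all genes. *Hnf4a* had 3407 and 3755 counts in adult mCD, 2 and 6 in CD organoids, 1 and 5 at day 20 and 0 or 1 at days 5 and 10.

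Of 20 efflux pumps, exchange partners and scaffold genes, 13 were called higher in adult mCD than in CD organoids and 0 lower, and 12 higher and 1 lower than at day 20, beside 9.84% and 4.5%, and 12.3% and 6.89%, of all genes. *Abcc2*, the apical pump MRP2, was at 90 and 105 CPM in adult mCD and at most 0.401 in the organoids, and *Pdzk1*, the scaffold of apical carriers, at 224 and 264 and at most 0.321. *Slc13a3*, the basolateral dicarboxylate carrier that supplies the counter-ion of OAT1, was at 162 and 175 CPM in adult mCD and at most 0.481 in the organoids. In CD organoids 3 of the 20 were called higher and 2 lower than at day 10, and 2 higher and 2 lower than at day 20, while 1 was called higher in each step of UB culture. The shares of all genes called were 4.96% and 5.71%, 4.74% and 4.73%, and 2.34% and 1.66% in these comparisons, and the counts rest on 1 to 3 genes each. *Abcc3*, a basolateral pump, was at 52.5 and 47.8 CPM in CD organoids against 1.70 and 2.88 at day 10, whereas *Slc29a4*, the monoamine and cation carrier PMAT, was at 2.42 and 2.00 against 29.8 and 34.1. *Abcb1b*, a P-glycoprotein gene, had 0 and 0 counts in CD organoids, 172 and 140 at day 20 and 71 and 91 in adult mCD.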

How the data were processed

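The 47 transporter genes were read from RNA-seq of 10 mouse libraries. The deposited counts are whole-number reads per gene, which, per the paper's methods, the authors made in Partek Flow by trimming, aligning to mm10 with STAR and quantifying against GENCODE M24 by the E/M model of that software, a model that shares out reads fitting several genes. The submitters' processing notes differ and name FastQC 0.11.8, cutadapt 2.5, Trimmomatic 0.36, STAR, edgeR 3.28.1 and GRCm38.p6. The deposited RPKM values divide these counts by the summed length of all annotated transcripts (within 2% for 98.2% of genes), 1 to 5.85 times the merged exons of the transporter genes, and served only to choose genes for the text. The deposited TMM values, a scaled signal, were not used. Per the paper's methods RNA was prepared with Direct-zol and KAPA Stranded kits, per the labels with QIAgen RNeasy and Illumina TruSeq kits. The strand setting of the counting is not given in the sources used here.

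The 24410 genes that reached 10 counts, summed over the 10 libraries, entered one fit of the 5 group means in edgeR 4.0.16 (R 4.3.3, quasi-likelihood test, TMM factors, prior count 1), and p-values were adjusted over all of them by Benjamini-Hochberg. The common dispersion was 0.00831, and with 2 libraries a group the spread is mostly estimated across genes. Between the 2 libraries of a group, the chi-square per degree of freedom was 10.7 at day 5 and 25.4 at day 10. It was 2.88 at day 20, 2.72 in CD organoids and 4.97 in adult mCD. The fit did not model such differences in spread between groups. Standard errors were derived from the test statistic. The step was tested on simulated data with known changes, in which every gene had the common dispersion and only genes above 1 CPM were changed. That test does not cover genes near 0 or groups of unequal spread. Count ratios carry exact 95% counting intervals, and a group at 0 was set to 3 counts over both libraries. Merged exons and positions came from GENCODE M21 on GRCm38, in which all 47 genes were found. Promoters came from RefSeq. Python 3.11.15 with scipy 1.17.1 and matplotlib 3.10.9 was used.

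Named are the 5 genes of highest RPKM per group, called genes of at least 1 CPM, and a list of kidney transporters, 34 genes in all. The other 13 are given by their counts or range. Genes of the marker lists are counts with examples. Some genes of the rule and the lists are counted but not reported here by name. The members, the lists and the sets split by level were chosen with earlier results of these data known. Alternatives changed the scaling, filter, prior count, threshold, tool and libraries in the fit, added a replicate block, and left out each library.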

Additional observations from a re-analysis of the deposited data

How the results depend on the processing

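Over the 77 calls of transporter genes and 17 alternatives that kept the thresholds, calls were kept 1250 times, lost 59 times, gained 17 times and turned 0 times. RLE size factors changed 0 calls, and DESeq2, a prior count of 5 and leaving out adult replicate 2 lost the most, with 9, 8 and 8. The counts of called genes moved most with the threshold. With an adjusted p up to 0.05 at any fold, 5 were lower in adult mCD than in CD organoids and 7 lower than at day 20, 12 were higher in CD organoids than at day 10, and 8 higher and 5 lower than at day 20. For day 10 against day 5 there were then 7 higher and 3 lower, and for day 20 against day 10 there were 10 higher and 5 lower. With a filter of at least 1 count, 2 were called higher at day 10 than at day 5 and 7 higher at day 20 than at day 10. With a prior count of 5, 3 were called higher in CD organoids than at day 10. Leaving out 1 library in turn gave 1 to 3 lower in adult mCD than in CD organoids (1 without adult replicate 2), 1 to 2 lower in CD organoids than at day 10 (1 without CD organoid replicate 1), 2 to 4 higher in CD organoids than at day 20 (2 without day 20 replicate 1), 0 to 1 higher at day 10 than at day 5 (0 without day 10 replicate 2) and 2 to 5 higher at day 20 than at day 10 (5 without day 20 replicate 1).

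Same-numbered libraries shared little deviation from their group means, which correlated between -0.191 and 0.0978 over 10 pairs of groups. These correlations run over many genes, so they cannot exclude a pairing that touches only some genes or groups. With the replicate block, 26 and 25 transporter genes were called higher in adult mCD, 6 higher in CD organoids than at day 10 and 4 higher at day 20 than at day 10. Counts under 3 in a library, which most adult-high genes had in the organoids, limit their fold changes to the counting intervals given. DESeq2 called 22 and 24 higher in adult mCD.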
